A study of Mus musculus with 13 samples.

Results

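Cells of a transplantable plasma cell tumour line, tVk12653, were compared with plasma cells of mice that carry the MYC transgene and have not been transplanted, called V. The 5 libraries were chosen by their labels, 2 of tVk12653 and 3 of V, out of 13 bulk RNA sequencing libraries in the series. V mice carried the Vκ*MYC transgene and IgG1-Cre (Cre recombinase expressed from the IgG1 heavy chain locus) on a C57/BL6 background. tVk12653 cells were donor-derived cells taken from transplant recipients on the same background that had received the Vk12653 tumour line, which is known to derive from the MYC transgene model. The label of neither group names the engineered Nras allele that other groups of the series carry. The wild-type group (WT, 3 libraries) gives reference values, and like the other groups of the series it enters the estimate of spread behind the p-values. Each library was made from 50000 bone marrow cells sorted as CD138 positive, B220 negative and CD45.2 positive. The 2 tVk12653 libraries carry different marrow identifiers and are taken as 2 recipients of 1 line, so every p-value speaks of this line and not of tumours in general, and tumour state and transplantation cannot be told apart. The labels give no age for either group and name neither the allele nor the Cre status of the tVk12653 cells.

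Multiple myeloma is a cancer of plasma cells, the antibody-secreting end stage of the B cell lineage. In the Vκ*MYC mouse, somatic hypermutation in germinal centre B cells switches on a human MYC transgene, and the mice develop a slow plasma cell disease. Lines such as Vk12653 can be passed from mouse to mouse and grow aggressively. MYC is a transcription factor that binds the E-box as a dimer with MAX and drives ribosome production, nucleotide synthesis and cell division. Plasma cells depend on a large secretory apparatus, on the regulators IRF4, BLIMP1 (Prdm1) and XBP1, and on survival signals such as IL-6 and the non-canonical NF-kB pathway, whose central kinase is NIK (Map3k14).

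Total counts were 2096815, 2925097 and 3257813 in V and 4126625 and 2880511 in tVk12653. Spearman correlations over genes were 0.970 to 0.977 among V libraries and 0.980 between the tVk12653 libraries, against 0.809 to 0.835 across the groups. Values below are CPM, counts scaled to the size of each library by trimmed means of M values. Log2 fold changes are tVk12653 minus V with their standard errors, and adjusted p-values come from edgeR (quasi-likelihood, Benjamini-Hochberg over all genes tested). Summed CPM of 16 neutrophil markers lay between 1961 and 3915 in V and between 108 and 178 in tVk12653, and that of 10 B cell markers between 224 and 338 and between 1.81 and 2.31. For 13 T and NK cell markers the ranges were 49.8 to 59.4 and 0.724 to 2.77, and for 14 monocyte and macrophage markers 260 to 410.2 and 118 to 169.9. At least 5 of the B cell markers and 10 of the T and NK cell markers were at 0 in each tVk12653 library. Of the monocyte and macrophage markers, 6 were at 0 in tVk12653 replicate 1 and 9 in replicate 2. Cd68, which rose (below), made up most of that sum in both tVk12653 libraries. Of the neutrophil markers 14 of 16 were called lower, or 8 without tVk12653 replicate 1 and 6 without replicate 2. These marker sums of other cells fell together in the tumour group, and the part of such RNA in the results below was not tested. In bulk RNA, fewer cells of a type and less RNA per cell cannot be told apart.

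Of 12835 genes tested, 2714 were higher in tVk12653 (21.1%) and 3013 were lower (23.5%), so 44.6% were called in either direction at an adjusted p under 0.05. Among them 1652 rose and 1979 fell at least 2-fold. The median log2 fold change over all genes tested was -0.04. Each list of genes below is read against these shares. Where libraries of the groups are said not to overlap, this describes single genes and adds nothing to a call. The share without overlap over all genes tested is not given here. Where a list is said to have none in a direction, edgeR gave 0 genes there also at an unadjusted p under 0.05, and DESeq2 called 0.

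**Figure D1:**
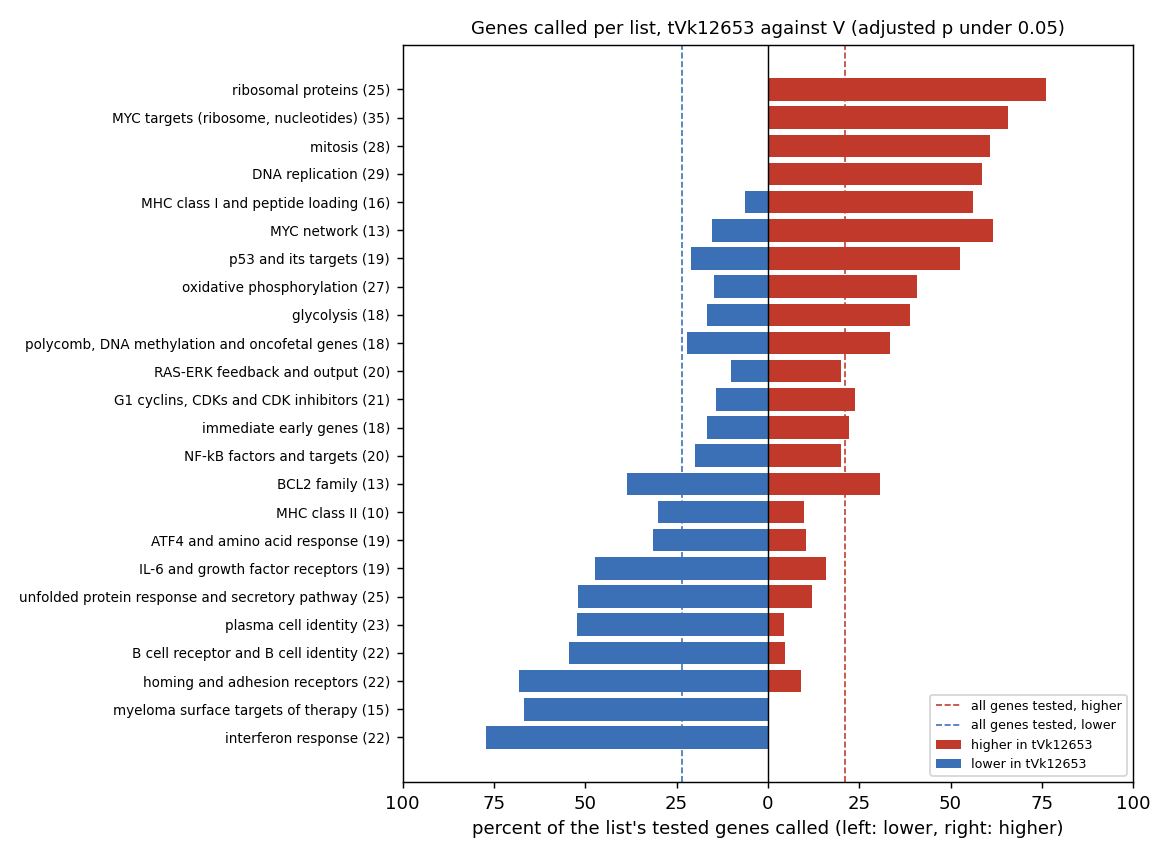
Share of each list's tested genes (number in brackets) called lower (blue, to the left) or higher (red, to the right) in tVk12653 than in V, in percent, with dashed lines at the shares over all genes tested (23.5% lower, 21.1% higher). Ribosomal proteins (76.0% higher) and the interferon response (77.3% lower) lie at the ends.

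The MYC network was led by Myc itself (chromosome 15, 61985341 to 61990361 in GRCm38.p6). Myc stood at 307, 430.1 and 364 CPM in V and 7999.8 and 8200.4 in tVk12653, with 51.4, 72.2 and 35 in WT, and rose by a log2 fold change of 4.46 ± 0.25 (adjusted p = 7.42e-08). Both tVk12653 libraries lay far above every V library. The share of Myc counts that came from the human transgene is unknown. Mycn (chromosome 12, 12936093 to 12941836), a family member that is usually silent in mature lymphoid cells, stood at 2.96, 2.13 and 4.22 CPM in V and 46.5 and 55.1 in tVk12653 (log2 fold change 4.0 ± 0.47, adjusted p = 1.23e-05). The 2 groups did not overlap for Mycn.

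Of the 13 tested members of the MYC network, 8 were higher and 2 lower (median log2 fold change 1.01). The risers included partners that oppose or bypass MYC. Mnt, a repressor that competes for MAX, had a log2 fold change of 1.21 ± 0.18 (adjusted p = 8.54e-05). Mga, another MAX-binding repressor, had 1.01 ± 0.13 (adjusted p = 2.09e-05), and Mlxip, the partner of MLX in glucose sensing, had 1.30 ± 0.14 (adjusted p = 5.40e-06). Mycl rested on 2 counts in V, against which the count ratio was 24 (95% counting interval 6.26 to 205). Mlx fell (-0.93 ± 0.19, adjusted p = 0.0014), as did Mxd4, a further MAX partner, by a smaller amount (-0.46 ± 0.16, adjusted p = 0.0262). The Mxd4 call was lost without V replicate 2 (adjusted p = 0.0981), tVk12653 replicate 1 (adjusted p = 0.0527) or tVk12653 replicate 2 (adjusted p = 0.168). Max, the obligate partner of MYC, stood at 39, 58.7 and 39.3 CPM in V and 48.5 and 35.9 in tVk12653 and did not pass the test (log2 fold change -0.11 ± 0.24, adjusted p = 0.737).

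The promoters of genes that MYC is known to regulate are shown because 23 of 35 tested MYC targets of ribosome biogenesis and nucleotide synthesis rose together. The E-box searched was CACGTG, which reads the same on both strands, in the 250 bases before each start in the RefSeq promoter table of GRCm38.p6. It was found in 3 of 19 list genes called higher that had a promoter in the table (15.8%), in 9.87% of tested genes with a promoter and in 6.86% of all 27025 genes in the table. In the whole tested list it was found in 4 of 30 (13.3%), and in list genes not called higher in 1 of 11 (9.09%). Among all genes called higher the share was 11.8%. All 3 are printed 5′ to 3′ in lower case with the E-box in capitals, and a match is a description of these letters only.
Paics (chr5:76951052-76951301, plus strand): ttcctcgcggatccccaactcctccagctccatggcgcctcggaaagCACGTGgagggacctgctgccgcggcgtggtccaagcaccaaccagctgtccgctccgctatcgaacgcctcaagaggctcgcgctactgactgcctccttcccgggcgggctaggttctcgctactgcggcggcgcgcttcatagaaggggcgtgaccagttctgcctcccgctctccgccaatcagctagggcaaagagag
Nop2 (chr6:125131633-125131882, plus strand): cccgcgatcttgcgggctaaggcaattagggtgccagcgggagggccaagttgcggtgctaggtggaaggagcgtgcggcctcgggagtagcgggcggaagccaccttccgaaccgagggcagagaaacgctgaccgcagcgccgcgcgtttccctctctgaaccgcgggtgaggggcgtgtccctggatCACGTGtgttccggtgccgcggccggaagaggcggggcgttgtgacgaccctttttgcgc
Impdh2 (chr9:108560186-108560435, plus strand): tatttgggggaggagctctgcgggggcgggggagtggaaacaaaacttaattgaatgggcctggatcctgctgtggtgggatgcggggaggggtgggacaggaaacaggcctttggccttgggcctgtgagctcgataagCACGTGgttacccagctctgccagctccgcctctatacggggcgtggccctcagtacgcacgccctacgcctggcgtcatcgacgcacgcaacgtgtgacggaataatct

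Ribosome and nucleotide genes were broadly higher in tVk12653, with 23 of 35 called higher, none lower and a median log2 fold change of 0.73. Ncl, which encodes nucleolin (chromosome 1, 86344719 to 86359455), stood at 925, 1285 and 991 CPM in V and 2396 and 2367 in tVk12653 (log2 fold change 1.16 ± 0.14, adjusted p = 1.67e-05). Every tVk12653 value of Ncl lay above every V value. Paics, an enzyme of purine synthesis whose promoter holds an E-box above, stood at 53.7, 58 and 62 CPM in V and 127 and 137 in tVk12653 (log2 fold change 1.18 ± 0.16, adjusted p = 5.31e-05). Gart, an earlier purine enzyme, had a log2 fold change of 1.11 ± 0.14 (adjusted p = 3.06e-05), and Rrp12, a factor of ribosome export, had 1.59 ± 0.22 (adjusted p = 5.66e-05). Nop2, a ribosomal RNA methyltransferase, stood at 34.5, 40.6 and 36 CPM in V and 79.1 and 68.1 in tVk12653 (log2 fold change 0.99 ± 0.17, adjusted p = 2.63e-04), and Impdh2, the rate-limiting enzyme of guanine nucleotide synthesis, at 7.4, 7.11 and 4.54 CPM in V and 15.7 and 19.2 in tVk12653 (log2 fold change 1.47 ± 0.37, adjusted p = 0.00483). Not every classical target moved. Odc1, which makes polyamines, stood at 143, 159.7 and 129 CPM in V and 80.2 and 203 in tVk12653 (adjusted p = 0.955), and Cad, which starts pyrimidine synthesis, at 216, 237 and 232 CPM in V and 249 and 268 in tVk12653 (adjusted p = 0.272).

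Ribosomal protein genes were the list with the largest share of risers. Of 25 tested, 19 were higher and none lower (median log2 fold change 0.92). Rps3 stood at 637, 742 and 649 CPM in V and 1745 and 2037 in tVk12653 (log2 fold change 1.48 ± 0.12, adjusted p = 4.25e-07) and Rps19 at 169, 227 and 159 CPM in V and 621 and 639 in tVk12653 (log2 fold change 1.77 ± 0.16, adjusted p = 1.37e-06). Both lie on chromosome 7, whose genes were higher as a whole in tVk12653 (below). In a fit without chromosomes 7, 8 and 14, 12 of the remaining 17 genes were higher and none lower, with a median of 0.84. Outside those chromosomes, Rplp0 stood at 381, 537 and 396 CPM in V and 762 and 809 in tVk12653 (log2 fold change 0.84 ± 0.14, adjusted p = 3.20e-04) and Rpl8 at 1076, 1314 and 1186 CPM in V and 2036 and 2274 in tVk12653 (log2 fold change 0.85 ± 0.12, adjusted p = 7.91e-05). Rpl13, on chromosome 8, was not called, with 123, 147 and 129 CPM in V and 132 and 136 in tVk12653 (adjusted p = 0.952). Ribosomal protein genes have many processed pseudogenes, so reads may be split between copies, and their levels are uncertain for that reason.

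Genes of DNA replication and mitosis were higher in tVk12653, with 17 of 29 replication genes and 17 of 28 mitosis genes called higher and none lower. The median log2 fold changes were 1.16 and 1.31. Mcm2, a subunit of the replicative helicase, stood at 65.1, 90.00 and 72 CPM in V and 221 and 285 in tVk12653 (log2 fold change 1.73 ± 0.19, adjusted p = 9.74e-06). Pold1, the catalytic subunit of DNA polymerase delta, stood at 13.8, 17.8 and 16.2 CPM in V and 64 and 65.9 in tVk12653 (log2 fold change 2.01 ± 0.25, adjusted p = 1.92e-05), and Prim1, the primase, at 10.8, 13.9 and 7.46 CPM in V and 41.8 and 39.1 in tVk12653 (log2 fold change 1.92 ± 0.25, adjusted p = 2.83e-05). For all 3 the libraries of the groups did not overlap. Pold1 lies on chromosome 7.

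Among mitosis genes, Foxm1, the transcription factor of the G2 and M programme, stood at 11.3, 33.1 and 14.3 CPM in V and 84.4 and 106 in tVk12653 (log2 fold change 2.25 ± 0.42, adjusted p = 0.00169). V replicate 2 was the highest of the V libraries for Foxm1 and still below both tVk12653 libraries. Mki67, the proliferation marker, stood at 554, 1418 and 684 CPM in V and 1975 and 2370.4 in tVk12653 (log2 fold change 1.29 ± 0.39, adjusted p = 0.0216), with the same library highest in V. It lies on chromosome 7, and its call was lost without V replicate 3 (adjusted p = 0.0669), tVk12653 replicate 1 (adjusted p = 0.0565) or tVk12653 replicate 2 (adjusted p = 0.113). Aurkb, the kinase of the chromosomal passenger complex, had a log2 fold change of 2.01 ± 0.43 (adjusted p = 0.00278), and Prc1, which bundles the central spindle and lies on chromosome 7, had 2.32 ± 0.30 (adjusted p = 6.18e-05). The mitosis count was unsteady: it was 8 without V replicate 3, 11 without tVk12653 replicate 1 and 6 without tVk12653 replicate 2. Cdc20, Aurka, Bub1 and Mad2l1 did not pass the test, and Cdc20, the activator of anaphase, stood at 7.89, 15.7 and 8.44 CPM in V and 16.4 and 15.9 in tVk12653 (adjusted p = 0.278).

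Upstream of replication, the retinoblastoma gene Rb1 (chromosome 14, 73192858 to 73325951) was all but absent from the tumour line. Rb1, the brake on E2F at the G1 to S transition, stood at 157, 120.2 and 140.2 CPM in V and 0.231 and 0.724 in tVk12653, with 142, 122 and 154 in WT. It rested on 3 counts in the 2 tVk12653 libraries together, against 1088 in V, a count ratio of V over tVk12653 of 325 (95% counting interval 111 to 1576). Rbl2, the related pocket protein p130, stood at 131, 115 and 136 CPM in V and 41.6 and 42.7 in tVk12653 (log2 fold change -1.59 ± 0.15, adjusted p = 1.28e-06), whereas Rbl1, the p107 gene, stood at 24.7, 42 and 39.6 CPM in V and 39.8 and 54 in tVk12653 and was not called (adjusted p = 0.315).

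E2f1, E2f3 and both E cyclins were higher. Ccne2, which drives CDK2 at S phase entry, stood at 10.8, 17.1 and 12 CPM in V and 53.6 and 51.1 in tVk12653 (log2 fold change 1.96 ± 0.24, adjusted p = 1.79e-05). Ccne1, on chromosome 7, had a log2 fold change of 1.17 ± 0.35 (adjusted p = 0.0198), E2f1 of 1.03 ± 0.26 (adjusted p = 0.00593) and E2f3 of 0.77 ± 0.16 (adjusted p = 0.00156). The Ccne1 call was lost without V replicate 3 (adjusted p = 0.0506), tVk12653 replicate 1 (adjusted p = 0.0721) or tVk12653 replicate 2 (adjusted p = 0.0867). Cdk6, a D-cyclin kinase, fell from 20.2, 47 and 38.6 CPM to 1.39 and 0.362 (log2 fold change -5.15 ± 0.94, adjusted p = 0.00165). Its paralog Cdk4 stood at 63.1, 64 and 51.3 CPM in V and 54.1 and 56.9 in tVk12653 and Ccnd2, the abundant D cyclin, at 1329, 639 and 658 CPM in V and 1737 and 2308 in tVk12653, and neither passed (adjusted p = 0.592 and 0.334). The groups did not overlap for Ccnd2, which was called higher with tVk12653 and V alone (adjusted p = 0.0296). It was also called higher with no low count filter (adjusted p = 1.68e-13), a setting that gave p-values too small for the spread of some genes (below). In the whole list of 21 G1 genes 5 were higher and 3 lower, and without V replicate 3 or without tVk12653 replicate 2 the number higher was 3. Without chromosomes 7, 8 and 14 it was 3 higher and 1 lower of 16.

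**Figure D2:**
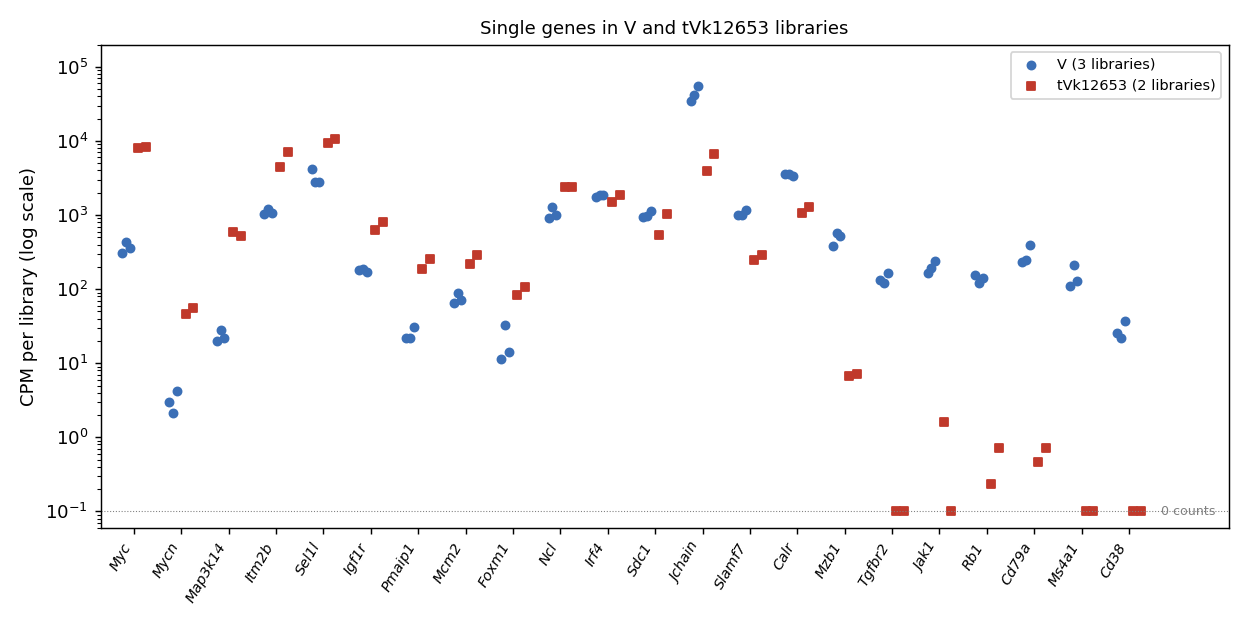
CPM of 22 genes in each V library (blue circles) and each tVk12653 library (red squares) on a log axis, where symbols on the dotted line stand for 0 counts. Myc and Map3k14 lie far above V, and Tgfbr2, Jak1, Rb1, Cd79a, Ms4a1 and Cd38 lie near or at 0 in tVk12653.

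Of the 10 expressed genes nearest to Rb1, 7 were lower, 1 higher and 2 not called (the loci shown were chosen after their values were seen). That number is near the share on chromosome 14 as a whole. There 199 of 306 genes with a mean of at least 3 log2 CPM in either group (65.0%) were lower, with a median log2 fold change of -0.84. Rcbtb2, which starts 54.1 kb before Rb1, had a mean of 147 CPM in V and 0.759 in tVk12653 (log2 fold change -7.40 ± 0.34, adjusted p = 3.99e-09). Lpar6, a lysophosphatidic acid receptor gene that lies within Rb1, had a mean of 6.62 CPM in V and no count in tVk12653, at least 7.44-fold lower. Since the strand setting of the counting is not given, Lpar6 and Rb1 reads may not be separate. The next expressed gene on the far side, Itm2b, which encodes an integral membrane protein, rose from 1027, 1193 and 1066 CPM to 4407 and 7075 (log2 fold change 2.39 ± 0.18, adjusted p = 2.51e-07). Med4, the gene after it, was not called (adjusted p = 0.191). Further off on the other side, Fndc3a fell (-2.34 ± 0.18, adjusted p = 3.02e-07).

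Map3k14 (chromosome 11, 103219764 to 103267401), which encodes NIK, had the lowest adjusted p of all list genes that rose. It stood at 19.7, 28.1 and 22.1 CPM in V and 592 and 522 in tVk12653, with 24.6, 33.2 and 22.5 in WT (log2 fold change 4.57 ± 0.19, adjusted p = 1.22e-09). The tVk12653 libraries lay more than 10-fold above all V libraries. The gene next to it, Fmnl1, a formin of leukocytes that starts 48.8 kb away, moved in the opposite direction from 123, 174 and 161 CPM to 3 and 3.62 (log2 fold change -5.54 ± 0.52, adjusted p = 1.57e-05). Beyond Fmnl1, Hexim2 (2.43 ± 0.38, adjusted p = 1.49e-04) and Hexim1 (1.06 ± 0.21, adjusted p = 8.56e-04), inhibitors of the elongation factor P-TEFb, were called higher. So was Plcd3, a phospholipase gene (1.99 ± 0.28, adjusted p = 1.24e-04). Its interval overlaps that of Acbd4 from 103101688 to 103101710 only, and reads of the 2 may not be separate in that short stretch. On the other side Arhgap27 fell (-1.17 ± 0.26, adjusted p = 0.0025), Plekhm1 was not called (adjusted p = 0.18) and Gosr2 fell (-0.65 ± 0.14, adjusted p = 0.00148). Gene counts do not measure DNA copy number or breakpoints directly, and neither was tested.

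**Figure D3:**
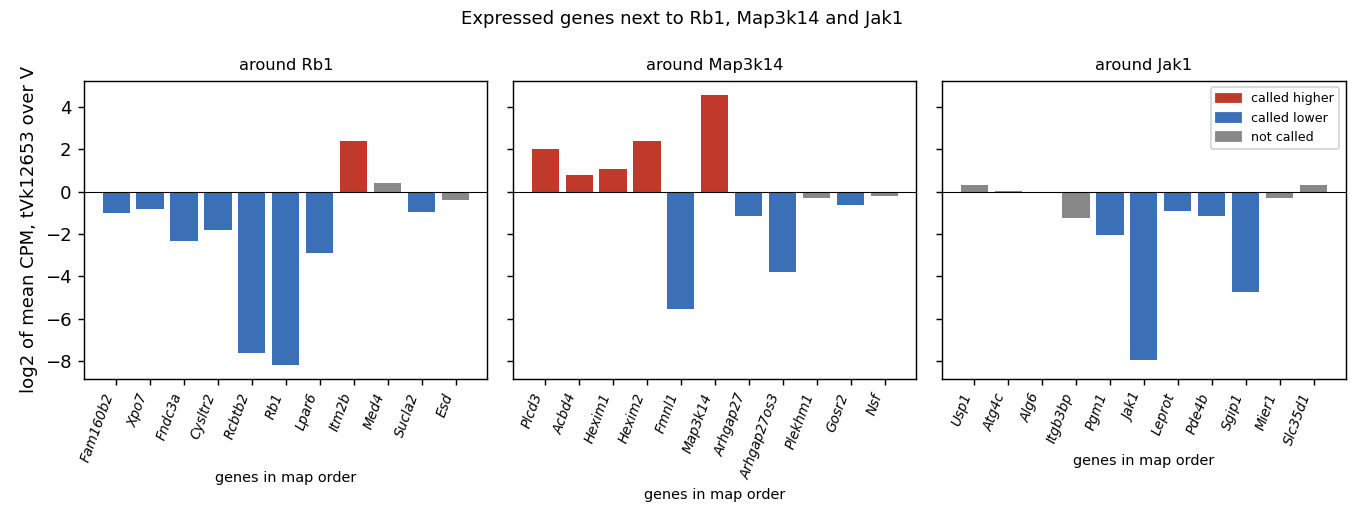
Log2 ratio of mean CPM (tVk12653 over V) of the expressed genes in map order around Rb1, Map3k14 and Jak1, with genes called higher in red, called lower in blue and not called in grey. Lpar6, at 0 counts in tVk12653, is drawn at its bound, and Rb1 and Rcbtb2 drop together beside the higher Itm2b, and Map3k14 and Fmnl1 point in opposite directions.

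With Map3k14 included, the NF-kB list was divided, with 4 of 20 genes higher and 4 lower (median log2 fold change -0.20, or -0.13 without V replicate 3), close to the shares over all genes. Nfkbia, the inhibitor and target of the pathway, had a log2 fold change of 0.72 ± 0.22 (adjusted p = 0.0181), and this call was lost without V replicate 1 (adjusted p = 0.0603), V replicate 3 (adjusted p = 0.0607) or tVk12653 replicate 2 (adjusted p = 0.318). Without V replicate 1 or V replicate 3 the number higher was 1, and without tVk12653 replicate 2 it was 2. Nfkb2, whose protein p100 is the substrate of the NIK pathway, stood at 146, 133 and 149 CPM in V and 192 and 85.8 in tVk12653 and Relb, its partner, at 37.5, 35.6 and 41.5 CPM in V and 32.8 and 27.9 in tVk12653, and neither was called (adjusted p = 0.95 and 0.349). Without tVk12653 replicate 1, whose Nfkb2 level lay above V while that of replicate 2 lay below, Nfkb2 was called lower (log2 fold change -0.73, adjusted p = 0.0233). Traf3, which targets NIK for degradation, stood at 113, 91.8 and 94.4 CPM in V and 106 and 113 in tVk12653 (adjusted p = 0.40). Cyld, a deubiquitinase that restrains NF-kB, stood at 355, 277 and 292 CPM in V and 126 and 144 in tVk12653 (log2 fold change -1.19 ± 0.18, adjusted p = 1.16e-04), and it lies on chromosome 8, whose genes were lower as a whole. Cd83, an activation marker of B cells and dendritic cells, fell from 20.7, 37 and 21.4 CPM to 0 and 1.45 (adjusted p = 1.98e-04).

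Of the plasma cell identity list, 12 of 23 genes were lower and 1 higher, with a median log2 fold change of -0.93. Irf4, the master regulator, stood at 1756, 1877 and 1879 CPM in V and 1514 and 1840.5 in tVk12653 and Prdm1 at 499, 329 and 647 CPM in V and 503 and 705 in tVk12653, and neither was called (adjusted p = 0.616 and 0.525). Sdc1, which encodes the sort marker CD138, stood at 929, 978 and 1123 CPM in V and 530.5 and 1044 in tVk12653 (adjusted p = 0.255). Replicate 1 of tVk12653 lay below every V library for Sdc1 and replicate 2 within their range, and without replicate 2 the gene was called lower (log2 fold change -0.93, adjusted p = 0.00645). Pou2af1, a coactivator of immunoglobulin promoters, was the one gene higher (0.55 ± 0.20, adjusted p = 0.0427), a call lost without V replicate 2 (adjusted p = 0.11), V replicate 3 (adjusted p = 0.105) or tVk12653 replicate 1 (adjusted p = 0.46).

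Jchain and Mzb1, which serve the assembly of secreted antibody, were among the genes that fell. Jchain (chromosome 5, 88519809 to 88527897), the joining chain of IgM and IgA polymers, stood at 34857, 41165 and 55190.0 CPM in V and 3995 and 6739.5 in tVk12653 (log2 fold change -3.03 ± 0.44, adjusted p = 3.99e-04). Mzb1, an endoplasmic reticulum chaperone of IgM, stood at 381, 565 and 514 CPM in V and 6.7 and 7.24 in tVk12653 (log2 fold change -6.13 ± 0.25, adjusted p = 1.22e-09). No tVk12653 value of either gene reached a V value. Xbp1, the regulator of secretory capacity, fell from 3090.3, 2707 and 3028 CPM to 1799 and 1742 (log2 fold change -0.73 ± 0.19, adjusted p = 0.00622). Ell2, an elongation factor of immunoglobulin transcripts, had a log2 fold change of -0.93 ± 0.18 (adjusted p = 9.42e-04), and Cd28, a survival receptor of long-lived plasma cells, had -4.55 ± 0.52 (adjusted p = 7.02e-05).

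Some chaperones of the endoplasmic reticulum fell with them: 13 of 25 genes of the unfolded protein response and secretory pathway were lower and 3 higher (median log2 fold change -0.40). The number higher was 1 without tVk12653 replicate 2. Hsp90b1, which encodes GRP94, stood at 11249, 11749 and 10746 CPM in V and 4359 and 4798 in tVk12653 (log2 fold change -1.30 ± 0.16, adjusted p = 1.56e-05). Calr, the lectin chaperone calreticulin, stood at 3631, 3576 and 3416 CPM in V and 1063 and 1295 in tVk12653 (log2 fold change -1.59 ± 0.14, adjusted p = 8.74e-07), and Dnajc3, a cochaperone, at 943, 979 and 984 CPM in V and 339 and 332 in tVk12653 (log2 fold change -1.53 ± 0.15, adjusted p = 3.00e-06). The groups did not overlap for these 3, though Calr lies on chromosome 8 and Dnajc3 on chromosome 14, and without chromosomes 7, 8 and 14 the list had 9 lower and 2 higher of 21. Leaving out V replicate 2 or tVk12653 replicate 1 left 8 lower.

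Sel1l, the adaptor of the HRD1 ubiquitin ligase that clears misfolded proteins, went against its partners. It stood at 4174, 2809 and 2760.4 CPM in V and 9379 and 10784 in tVk12653 (log2 fold change 1.63 ± 0.25, adjusted p = 2.40e-04), while Syvn1, which encodes HRD1 itself, stood at 577, 546 and 584 CPM in V and 247 and 243 in tVk12653 (log2 fold change -1.22 ± 0.13, adjusted p = 5.88e-06). In the ATF4 and amino acid response list 6 of 19 genes were lower, 2 higher and 11 not called. The median was 0.06, and it lay between -0.16 and 0.14 when 1 library was left out, below 0 without V replicate 1, V replicate 2 or tVk12653 replicate 1. Ddit3, the CHOP transcription factor, stood at 55.2, 60.8 and 44.5 CPM in V and 10.6 and 12.7 in tVk12653 (log2 fold change -2.21 ± 0.38, adjusted p = 4.90e-04), and Atf4 had a log2 fold change of -0.87 ± 0.16 (adjusted p = 5.07e-04). Slc3a2, the heavy chain of amino acid exchangers, stood at 2336, 2118 and 2120.1 CPM in V and 882 and 464 in tVk12653 (log2 fold change -1.70 ± 0.28, adjusted p = 4.24e-04). Slc7a11, the cystine transporter, rose from 11.3, 2.85 and 5.19 CPM to 43.7 and 31.9 (log2 fold change 2.63 ± 0.58, adjusted p = 0.00404).

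Of 22 tested genes of the B cell receptor and B cell identity, 12 were lower and 1 higher, with a median log2 fold change of -1.93. Ms4a1, which encodes CD20, stood at 110.0, 209 and 130.1 CPM in V and 0 in both tVk12653 libraries, at least 168-fold lower at a floor of 3 counts per library (adjusted p = 4.04e-06). This transcript moved with the B cell marker sum given above, in which it is counted, and the part of residual B cells in V was not tested. Some list genes, such as Cd79a, lie on chromosome 7, and without chromosomes 7, 8 and 14 the list had 8 lower and 1 higher of 16, and the median was -1.1.

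Cd79a, Cd79b, Lyn and Syk, which act in receptor signalling, were among the genes that fell. Cd79a, which carries signals of the B cell receptor, stood at 232, 244 and 389 CPM in V and 0.462 and 0.724 in tVk12653 (log2 fold change -8.92 ± 0.62, adjusted p = 4.15e-06). Its partner Cd79b stood at 279, 279 and 332 CPM in V and 89.5 and 110.5 in tVk12653 (log2 fold change -1.57 ± 0.15, adjusted p = 2.09e-06). The difference between the 2 falls was not tested. Lyn, a proximal kinase of the receptor, stood at 90.2, 95.3 and 136 CPM in V and 12.7 and 7.97 in tVk12653 (log2 fold change -3.33 ± 0.29, adjusted p = 9.34e-07), and Syk at 540.0, 605 and 581 CPM in V and 221 and 180.0 in tVk12653 (log2 fold change -1.52 ± 0.14, adjusted p = 1.47e-06). Blnk, the adaptor below SYK, stood at 376, 373 and 284 CPM in V and 453 and 375 in tVk12653 and was not called (adjusted p = 0.244). The single riser of the list was Id3, an inhibitor of E proteins, which rested on 2 counts in V and had a count ratio of 25.1 (95% counting interval 6.57 to 214).

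In the MHC class II list, the shares called were not far from those over all genes tested (below). H2-Ab1, a chain of the I-A molecule, stood at 119.8, 258 and 277 CPM in V and 9.01 and 13 in tVk12653 (log2 fold change -4.34 ± 0.51, adjusted p = 1.15e-04), and H2-Aa, its partner chain, rested on 3 counts in tVk12653, a count ratio of V over tVk12653 of 115 (95% counting interval 39 to 559). Cd74, the invariant chain, was abundant in both groups at 4439, 3400.2 and 4071 CPM in V and 4012 and 5274 in tVk12653 (adjusted p = 0.509). H2-Eb1 was called lower (-1.29 ± 0.41, adjusted p = 0.0254) and H2-DMa higher (1.12 ± 0.34, adjusted p = 0.0145). The H2-Eb1 call was lost without V replicate 2 (adjusted p = 0.0641), V replicate 3 (adjusted p = 0.0742), tVk12653 replicate 1 (adjusted p = 0.129) or tVk12653 replicate 2 (adjusted p = 0.108). The H2-DMa call was lost without V replicate 1 (adjusted p = 0.0529) or tVk12653 replicate 2 (adjusted p = 0.293). Of the 10 genes tested, 1 was higher (10%) and 3 were lower (30%), against 21.1% and 23.5% of all genes tested.

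In the MHC class I list 9 of 16 genes were higher and 1 lower (median log2 fold change 0.47). Without tVk12653 replicate 2 these were 7 higher and 3 lower, with a median of 0.31. H2-K1 (chromosome 17, 33996012 to 34000619), a classical class I chain, stood at 2104, 1937 and 1786 CPM in V and 3998 and 4923 in tVk12653 (log2 fold change 1.20 ± 0.15, adjusted p = 2.35e-05), and H2-D1 at 1276, 1138 and 1062 CPM in V and 3392 and 4565 in tVk12653 (log2 fold change 1.78 ± 0.16, adjusted p = 1.17e-06). All tVk12653 values lay above all V values for both. Class I genes are near-identical in sequence, so reads may be split among H2-K1, H2-D1 and the H2-Q genes. Tap2, a peptide transporter, had a log2 fold change of 0.74 ± 0.14 (adjusted p = 7.95e-04). B2m, the shared light chain, stood at 5058, 4170.0 and 3935 CPM in V and 5009 and 6280.2 in tVk12653 and was not called (adjusted p = 0.105). Psmb10, an immunoproteasome subunit on chromosome 8, was the one gene called lower with all libraries (-1.57 ± 0.20, adjusted p = 2.83e-05).

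The interferon response had the largest share of lower genes among the pathway lists, 17 of 22 tested with none higher. The median log2 fold change was -2.61, or -1.93 with genes at 0 set to their bound. Ddx58, the RNA sensor RIG-I, stood at 187, 161 and 174 CPM in V and 24.7 and 27.9 in tVk12653 (log2 fold change -2.73 ± 0.15, adjusted p = 1.62e-08). Both tVk12653 libraries lay below every V library for Ddx58.

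Stat2, Irf9 and Irf1, regulators of the response, fell too. Stat2, a subunit of the interferon-stimulated factor ISGF3, had a log2 fold change of -1.85 ± 0.21 (adjusted p = 1.02e-05) and Irf9, a further subunit, of -1.71 ± 0.22 (adjusted p = 2.97e-05). Irf1, a regulator induced by interferon, was lower as well (-1.15 ± 0.20, adjusted p = 3.97e-04). Isg15 and Mx1, effectors of the response, were low already in V. Isg15, a ubiquitin-like modifier, stood at 5.92, 8.18 and 1.95 CPM in V and 0.231 and 0.362 in tVk12653 (count ratio 18.3, 95% counting interval 4.76 to 157), and Mx1, an antiviral GTPase, at 5.42, 3.56 and 0.974 CPM in V and 0 in both tVk12653 libraries (at least 3.73-fold lower). Oas3, an RNA-activated synthetase, had a log2 fold change of -2.49 ± 0.74 (adjusted p = 0.0137). Bst2, the virus tether tetherin, which lies on chromosome 8, stood at 54.7, 78.6 and 55.5 CPM in V and 34 and 42.7 in tVk12653 (log2 fold change -0.73 ± 0.22, adjusted p = 0.0138). Each of these 4 calls was lost without 1 library. Isg15 was lost without tVk12653 replicate 1 (adjusted p = 0.0909) or tVk12653 replicate 2 (adjusted p = 0.0501), Mx1 without tVk12653 replicate 1 (adjusted p = 0.0691), Oas3 without V replicate 2 (adjusted p = 0.0689), tVk12653 replicate 1 (adjusted p = 0.101) or tVk12653 replicate 2 (adjusted p = 0.0549) and Bst2 without V replicate 2 (adjusted p = 0.0631) or tVk12653 replicate 1 (adjusted p = 0.134). Without tVk12653 replicate 1 the list had 8 genes lower, and without chromosomes 7, 8 and 14 it had 13 lower of 18.

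The promoters of Stat2, Isg15, Oas3 and Bst2 are printed because these genes fell together and hold the core of the element that ISGF3 recognises. The letters searched were GAAA, any 2 bases and GAAA again, on both strands, in the same window of 250 bases. They were found in 5 of 13 list genes called lower that had a promoter in the table (38.5%), in 3.30% of tested genes and in 3.46% of all genes in the table. In the whole tested list they were found in 6 of 17 (35.3%), and in list genes not called lower in 1 of 4 (25%). Among all genes called lower the share was 4.70%. Whether these letters go with the fall was not tested. Capitals mark the matches, which overlap one another in Isg15 (3 matches) and Bst2 (2 matches) and lie on the opposite strand in Stat2.
Stat2 (chr10:128270248-128270497, plus strand): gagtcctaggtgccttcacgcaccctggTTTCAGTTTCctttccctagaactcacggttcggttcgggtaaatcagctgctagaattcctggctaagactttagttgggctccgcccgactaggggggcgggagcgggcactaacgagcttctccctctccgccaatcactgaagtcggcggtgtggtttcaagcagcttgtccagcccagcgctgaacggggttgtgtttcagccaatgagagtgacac
Isg15 (chr4:156200819-156201068, minus strand): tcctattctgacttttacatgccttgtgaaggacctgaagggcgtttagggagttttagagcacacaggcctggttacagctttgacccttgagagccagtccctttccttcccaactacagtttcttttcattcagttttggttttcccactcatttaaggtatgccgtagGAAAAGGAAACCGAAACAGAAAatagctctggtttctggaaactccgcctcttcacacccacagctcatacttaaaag
Oas3 (chr5:120777660-120777909, minus strand): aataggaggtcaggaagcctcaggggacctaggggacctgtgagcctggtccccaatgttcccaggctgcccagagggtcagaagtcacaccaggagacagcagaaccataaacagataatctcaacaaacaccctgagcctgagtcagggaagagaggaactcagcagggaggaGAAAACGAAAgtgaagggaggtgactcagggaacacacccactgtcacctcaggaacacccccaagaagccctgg
Bst2 (chr8:71537473-71537722, minus strand): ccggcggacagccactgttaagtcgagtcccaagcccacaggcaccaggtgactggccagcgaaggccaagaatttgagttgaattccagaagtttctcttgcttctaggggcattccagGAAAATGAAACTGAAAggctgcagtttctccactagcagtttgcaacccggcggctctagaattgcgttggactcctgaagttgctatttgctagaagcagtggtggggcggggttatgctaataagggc

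Jak1 (chromosome 4, 101151974 to 101265282), the kinase shared by the receptors for interferons and for IL-6, was nearly absent from the tumour line. It stood at 166, 192 and 242 CPM in V and 1.62 and 0 in tVk12653, with 199.6, 309 and 266 in WT (log2 fold change -7.64 ± 0.44, adjusted p = 9.35e-08). Its 7 counts in tVk12653 all came from replicate 1. Of the 10 nearest expressed genes, 6 were not called (Usp1, Atg4c, Alg6, Itgb3bp, Mier1 and Slc35d1) and 4 were lower (Pgm1, Leprot, Pde4b and Sgip1). On chromosome 4 as a whole, 168 of 600 genes with a mean of at least 3 log2 CPM in either group (28%) were lower. Pgm1, a phosphoglucomutase, had a log2 fold change of -2.04 ± 0.28 (adjusted p = 5.55e-05) and Pde4b, a phosphodiesterase, of -1.18 ± 0.19 (adjusted p = 2.37e-04). Jak2 stood at 145, 106 and 135 CPM in V and 137 and 152 in tVk12653 and Stat3 at 227, 209 and 192 CPM in V and 244 and 222 in tVk12653, and neither was called (adjusted p = 0.364 and 0.292).

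In the list of IL-6 and growth factor receptors 9 of 19 genes were lower, 3 higher and 7 not called. Both receptor chains for IL-6 were among those higher. Il6ra, the ligand-binding chain of the IL-6 receptor, stood at 57.7, 63.7 and 70.4 CPM in V and 139.8 and 188 in tVk12653 (log2 fold change 1.35 ± 0.17, adjusted p = 2.08e-05). Il6st, the signalling chain gp130, stood at 314, 315 and 304 CPM in V and 612 and 606 in tVk12653 (log2 fold change 0.97 ± 0.18, adjusted p = 5.97e-04). Igf1r, the receptor of insulin-like growth factor 1, stood at 180.5, 189.6 and 168 CPM in V and 623 and 809 in tVk12653 (log2 fold change 2.00 ± 0.14, adjusted p = 1.32e-07). For these 3 receptors both tVk12653 libraries lay above all V libraries, and Igf1r lies on chromosome 7. Pim1, a survival kinase induced by the pathway, was lower (log2 fold change -0.91 ± 0.21, adjusted p = 0.00332). The number lower was 5 without tVk12653 replicate 1, as without replicate 2. Kit, the stem cell factor receptor, stood at 19.7, 13.5 and 21.7 CPM in V and 0.231 and 0 in tVk12653 (count ratio 129.7, 95% counting interval 22.9 to 5159.5), and Il4ra at 10.8, 13.9 and 10.1 CPM in V and 0.693 and 0.362 in tVk12653 (log2 fold change -4.30 ± 0.95, adjusted p = 0.00285).

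Receptors for homing and adhesion were broadly lower, with 15 of 22 genes lower and 2 higher (median log2 fold change -1.31). Itgb2, the shared chain of leukocyte integrins, stood at 378, 357 and 435 CPM in V and 14.6 and 20.3 in tVk12653 (log2 fold change -4.51 ± 0.25, adjusted p = 2.79e-08). Its partner Itgal, with which it forms LFA-1, stood at 752, 710.1 and 845 CPM in V and 761 and 830.2 in tVk12653 and was not called (adjusted p = 0.815). Cd93, which plasma cells need to persist in bone marrow, stood at 115, 128 and 220.3 CPM in V and 0.231 and 0 in tVk12653, a count ratio of 1140.0 (95% counting interval 204 to 45061). Cd44, a hyaluronan receptor, had a log2 fold change of -1.12 ± 0.16 (adjusted p = 6.80e-05). The 2 risers were Cxcr4, the receptor that holds plasma cells in the marrow, at 128, 172 and 116 CPM in V and 214 and 195 in tVk12653 (log2 fold change 0.56 ± 0.18, adjusted p = 0.0198), and the tetraspanin gene Cd9 at 11.3, 12.8 and 17.5 CPM in V and 49.2 and 42 in tVk12653 (log2 fold change 1.70 ± 0.28, adjusted p = 2.52e-04). The Cxcr4 call was lost without V replicate 1 (adjusted p = 0.0622), V replicate 3 (adjusted p = 0.0837) or tVk12653 replicate 1 (adjusted p = 0.125). Itgb2 is also abundant in neutrophils and T cells, and its fall moved with those marker sums.

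Surface antigens of myeloma, several of them drug targets, were lower or not called: 10 of 15 fell and none rose (median log2 fold change -1.73). Cd38, the target of daratumumab, stood at 25.6, 22.1 and 37.3 CPM in V and 0 in both tVk12653 libraries, at least 31.8-fold lower (adjusted p = 6.77e-06). Slamf7, the target of elotuzumab, stood at 1007, 1009 and 1174 CPM in V and 245 and 285 in tVk12653 (log2 fold change -2.01 ± 0.17, adjusted p = 7.14e-07). Tnfrsf17, which encodes BCMA, stood at 109, 126 and 136 CPM in V and 20.6 and 23.9 in tVk12653 (log2 fold change -2.49 ± 0.35, adjusted p = 1.80e-04). In none of these did a tVk12653 library reach a V library. Cd48 had a log2 fold change of -4.02 ± 0.27 (adjusted p = 7.75e-08) and Lax1, an adaptor of lymphocytes, of -1.29 ± 0.19 (adjusted p = 7.22e-05), while Ly9 stood at 136, 103 and 114 CPM in V and 96.8 and 99.2 in tVk12653 and was not called (adjusted p = 0.181). Ptprc, which encodes the CD45 of the sort, stood at 581, 586 and 507 CPM in V and 196 and 183 in tVk12653 (log2 fold change -1.56 ± 0.24, adjusted p = 1.99e-04).

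Of 19 tested genes of the p53 list, 10 were higher (52.6%, against 21.1% of all genes tested). Another 4 were lower (21.1%), near the 23.5% of all genes tested. The median log2 fold change was 1.01, or 0.61 without V replicate 3. Pmaip1, which encodes the death effector NOXA, stood at 21.7, 21.7 and 30.5 CPM in V and 186 and 258 in tVk12653 (log2 fold change 3.15 ± 0.23, adjusted p = 3.18e-07). Bbc3, which encodes PUMA, stood at 27.6, 29.2 and 39.6 CPM in V and 94.8 and 124 in tVk12653 (log2 fold change 1.75 ± 0.22, adjusted p = 2.37e-05), and Aen, an apoptosis nuclease, at 31.1, 32.7 and 24 CPM in V and 112 and 111 in tVk12653 (log2 fold change 1.94 ± 0.16, adjusted p = 5.75e-07). Eda2r, a death receptor of the TNF family, had no count in any V library and 13.6 and 8.33 in tVk12653, at least 9.36-fold higher. Bbc3, Aen and Bax lie on chromosome 7, and without chromosomes 7, 8 and 14 the list had 7 higher and 4 lower of 16, with a median of 0.38.

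Mdm2, the p53 target that degrades p53, went down, from 208, 238 and 209 CPM to 99.2 and 96 (log2 fold change -1.16 ± 0.14, adjusted p = 1.97e-05). Fas, a death receptor, had a log2 fold change of -2.63 ± 0.39 (adjusted p = 1.06e-04), and Gadd45a, a stress sensor, had no count in tVk12653 (at least 11.1-fold lower). Trp53 itself stood at 49.8, 45.5 and 46.1 CPM in V and 50.2 and 52.9 in tVk12653 (adjusted p = 0.517). The BCL2 family, in which 4 of 13 were higher and 5 lower, was mixed, with 2 higher and 4 lower of 10 without chromosomes 7, 8 and 14. Bcl2 stood at 199, 186 and 246 CPM in V and 638 and 409 in tVk12653 (log2 fold change 1.32 ± 0.29, adjusted p = 0.00434; lost without tVk12653 replicate 1 (adjusted p = 0.054)), and Mcl1, on which plasma cells depend, at 766, 743 and 779.8 CPM in V and 476 and 476 in tVk12653 (log2 fold change -0.68 ± 0.13, adjusted p = 6.04e-04). Bcl2l11, the BIM gene, fell from 56.7, 51.2 and 40.9 CPM to 12 and 9.06 (log2 fold change -2.20 ± 0.27, adjusted p = 1.73e-05), while Bax rose (1.41 ± 0.20, adjusted p = 7.73e-05).

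Of the feedback and output genes of the RAS to ERK pathway, 4 of 20 were higher and 2 lower. Their median log2 fold change of 0.05 was unsteady: it was 0.25 without V replicate 1, 0.30 without V replicate 2, -0.10 without V replicate 3, 0.37 without tVk12653 replicate 1 and -0.47 without tVk12653 replicate 2. The number lower was 1 without tVk12653 replicate 1, and without chromosomes 7, 8 and 14 the median was 0.49. Nras stood at 35.5, 38.1 and 30.8 CPM in V and 54.1 and 46.7 in tVk12653 (log2 fold change 0.54 ± 0.16, adjusted p = 0.0131), a call that was lost without V replicate 3 (adjusted p = 0.0554) or tVk12653 replicate 1 (adjusted p = 0.12). Spry1, an inhibitor of receptor kinases, had no count in any V library and 5.32 and 33 in tVk12653 (at least 16.3-fold higher, adjusted p = 5.68e-04). Phlda1, an ERK-responsive gene, stood at 5.92, 5.69 and 9.41 CPM in V and 93.6 and 228 in tVk12653 (log2 fold change 4.48 ± 0.66, adjusted p = 6.03e-04). Dusp6 and Etv5, common readouts of ERK, stood at 12.8, 12.5 and 11.4 CPM in V and 9.71 and 9.78 in tVk12653 and at 9.37, 12.8 and 11.4 CPM in V and 6.7 and 10.1 in tVk12653, and neither was called (adjusted p = 0.603 and 0.295).

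Immediate early genes separated the 2 tVk12653 recipients from each other. Fos, a subunit of AP-1, stood at 307, 444 and 294 CPM in V and 227 and 2346 in tVk12653. Jun, its partner, stood at 626, 954 and 765 CPM in V and 487 and 2873 in tVk12653. Dusp1, a phosphatase of MAP kinases, stood at 68.5, 74.4 and 71.7 CPM in V and 32.6 and 248 in tVk12653. For each of these 3 genes tVk12653 replicate 1 lay below every V library and replicate 2 above every one, and none of them was called (adjusted p = 0.195, 0.353 and 0.41). With no low count filter all 3 were called higher (adjusted p = 5.81e-30, 3.01e-11 and 5.86e-07). Since the 2 tVk12653 libraries lay on opposite sides of V, these p-values do not reflect the spread between them and carry no weight. Of the 18 immediate early genes, 16 were higher in replicate 2 than in replicate 1 (88.9%), against 50.4% of the 9575 genes with a tVk12653 mean of at least 5 CPM. The ratio of replicate 2 to replicate 1 was 10.3 for Fos, 5.90 for Jun, 7.60 for Dusp1 and 5.16 for Zfp36, with no replicate check on a difference between single libraries.

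A few genes of this class differed between the groups in both recipients. Egr1 stood at 83.3, 96.4 and 91.5 CPM in V and 0 and 0.724 in tVk12653, a count ratio of 323 (95% counting interval 89.1 to 2672), and this call was lost without tVk12653 replicate 1 (adjusted p = 0.0547). Klf2, a quiescence factor of lymphocytes on chromosome 8, stood at 45.9, 39.8 and 81.5 CPM in V and 0 and 1.09 in tVk12653 (count ratio 136, 95% counting interval 46.2 to 662) and Klf4 at 13.8, 16 and 18.8 CPM in V and 0.231 and 0 in tVk12653 (count ratio 117, 95% counting interval 20.7 to 4665). Nr4a2, an orphan nuclear receptor, was higher at 3.45, 0 and 4.87 CPM in V and 22.7 and 65.2 in tVk12653 (log2 fold change 3.95 ± 0.72, adjusted p = 0.00113). In all, 4 of 18 were called higher (22.2%) and 3 lower (16.7%), near or below the shares over all genes tested (21.1% and 23.5%). The median log2 fold change was 0.73, or 1.24 without tVk12653 replicate 1 and -0.76 without tVk12653 replicate 2. The number higher was 1 without tVk12653 replicate 2 or V replicate 3 and 2 without V replicate 1 or V replicate 2.

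**Figure D4:**
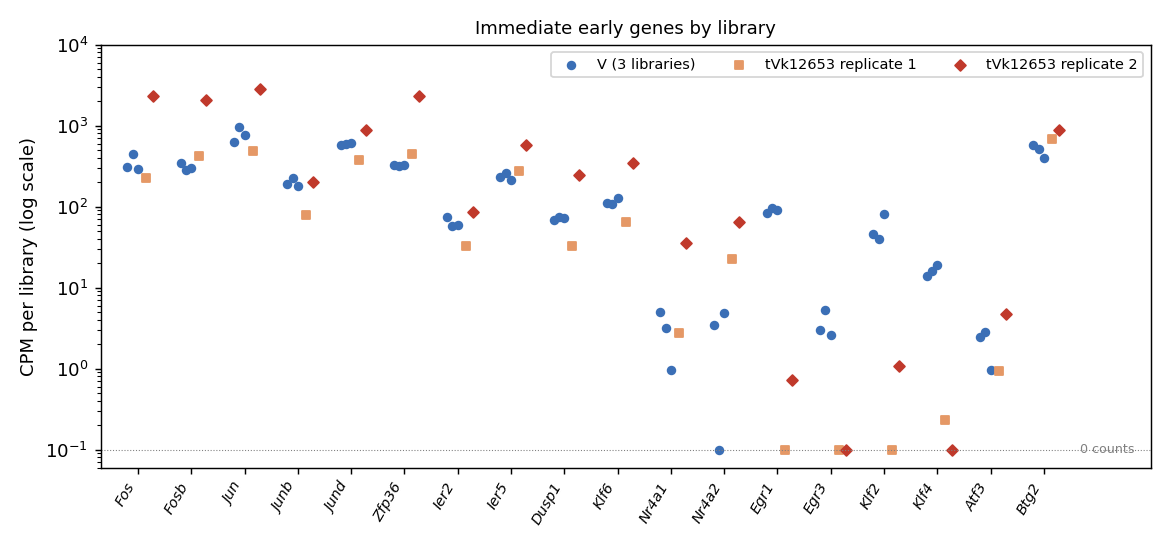
CPM of the 18 immediate early genes in the V libraries (blue circles), tVk12653 replicate 1 (orange squares) and replicate 2 (red diamonds) on a log axis, where symbols on the dotted line stand for 0 counts. Replicate 2 lies above all V libraries for 13 genes and replicate 1 below them for 12.

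In energy metabolism, 7 of 18 glycolysis genes were higher and 3 lower, and 11 of 27 genes of oxidative phosphorylation were higher and 4 lower. Ldha, which makes lactate, stood at 37.5, 56.6 and 35.7 CPM in V and 142 and 144 in tVk12653 (log2 fold change 1.72 ± 0.25, adjusted p = 1.41e-04), and Pkm, the pyruvate kinase, at 149, 244 and 165 CPM in V and 384 and 467 in tVk12653 (log2 fold change 1.19 ± 0.19, adjusted p = 1.83e-04). Pfkl, a phosphofructokinase, went down (-1.47 ± 0.15, adjusted p = 4.33e-06). Ldha and Gpi1 lie on chromosome 7, and without chromosomes 7, 8 and 14 the glycolysis counts were 4 higher and 3 lower of 15. Glycolysis had 4 genes higher without tVk12653 replicate 2. Respiratory changes were small: Uqcrc2, a core protein of complex III on chromosome 7, stood at 75.9, 76.1 and 71.4 CPM in V and 131 and 145 in tVk12653 (log2 fold change 0.89 ± 0.13, adjusted p = 1.08e-04), and the median of the list was 0.30. The number higher in this list was 6 with tVk12653 and V alone, fell to 7 without V replicate 1 and to 5 without V replicate 3 or tVk12653 replicate 2, and the number lower to 1 without V replicate 2, V replicate 3 or tVk12653 replicate 1 and to 2 without tVk12653 replicate 2.

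Chromatin regulators and oncofetal genes had 6 of 18 higher and 4 lower. Lin28b, an RNA-binding protein of fetal tissues that blocks let-7 maturation, rested on 2 counts in V. It stood at 0.986, 0 and 0 CPM in V and 56.2 and 65.6 in tVk12653, a count ratio of 237 (95% counting interval 65.2 to 1963). Eed, a core subunit of the polycomb complex that methylates histone H3, had a log2 fold change of 1.07 ± 0.15 (adjusted p = 4.76e-05) and lies on chromosome 7. Dnmt3a, a de novo methyltransferase, went down from 43.4, 43.8 and 63.9 CPM to 3.7 and 12.3 (log2 fold change -2.76 ± 0.40, adjusted p = 1.37e-04), and Tet2 had -1.01 ± 0.16 (adjusted p = 2.07e-04). Ezh2, the methyltransferase of that complex, stood at 34, 55.5 and 37.3 CPM in V and 74 and 58.7 in tVk12653 (adjusted p = 0.115). Ezh2 was called higher with tVk12653 and V alone (adjusted p = 0.0361). It was also called higher with no low count filter (adjusted p = 0.0149), a setting that gave p-values too small for the spread of some genes (below). Without V replicate 3 the list had 2 genes lower.

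Some transcripts of the tumour line were not found in any V library. In all, 81 genes were called higher and had no count in V (0.631% of those tested). Rfx6, a transcription factor of pancreatic endocrine cells, stood at 183 and 157 CPM in tVk12653, at least 145-fold higher (adjusted p = 7.75e-08). Gpr158, an orphan receptor of the nervous system, stood at 171 and 161 (at least 141-fold), and Bche, a cholinesterase of liver and plasma, at 88.1 and 97.8 (at least 79.2-fold). Sema3a, an axon guidance protein, rose from 2 counts in V to 379.8 and 584 CPM (count ratio 1818, 95% counting interval 503 to 15021), and Sis, the sucrase of the gut, from 3 counts to 177 and 426 CPM (count ratio 723, 95% counting interval 247 to 3509). Rec114, which acts in meiotic recombination, stood at 55.5 and 58.7 CPM (at least 48.6-fold). The rule for the largest changes asked for no overlap between the groups, so presence in both recipients is no added finding. Sis stood higher in replicate 2 than in replicate 1.

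In the other direction, 355 genes (2.77% of those tested) were called lower and had no count in tVk12653. This number cannot be set against the 81 above, since it asks for 0 counts in 2 libraries and not in 3, and since V held more marker RNA of neutrophils, B cells, T cells and monocytes. Tgfbr2 (chromosome 9, 116087695 to 116175363), the ligand-binding receptor of TGF-beta, stood at 133, 122 and 165 CPM in V and 0 in both tVk12653 libraries, with 126, 167 and 155 in WT (at least 157-fold lower, adjusted p = 1.55e-08). Fcmr, the receptor for IgM, stood at 91.2, 104 and 88.9 CPM in V (at least 106-fold lower), and Btla, a coinhibitory receptor, at 51.3, 59.8 and 115 (at least 84.5-fold lower). Serpina3f, a protease inhibitor of a tandem cluster whose members are near-identical, stood at 179, 189 and 101 CPM in V (at least 175-fold lower), and its neighbour Serpina3g at 74, 57.6 and 64.9. St6gal1, the sialyltransferase that modifies B cell glycoproteins, stood at 940.4, 1079 and 1571 CPM in V and 0.231 and 0.724 in tVk12653, a count ratio of 2917 (95% counting interval 998 to 14147). Fyn, a SRC family kinase also found in T cells, stood at 51.3, 109.9 and 88.9 CPM in V (at least 93.7-fold lower, adjusted p = 0.0053). Presence in all 3 V libraries is no added finding here either, given the same rule. Btla and Fyn were the most uneven of these genes among the V libraries.

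Levels also shifted by chromosome in the tumour line. Among genes with a mean of at least 3 log2 CPM in either group, the median log2 difference from the V mean on chromosome 7 was 0.780 and 0.782 in the 2 tVk12653 libraries. It was -0.753 and -0.801 on chromosome 8 and -0.804 and -0.831 on chromosome 14. On every other chromosome, X included, the tVk12653 medians lay between -0.29 and 0.18, and V libraries lay between -0.07 and 0.11 on all. On chromosome 7, 466 of 789 genes were called higher and 76 lower. On chromosome 8, 313 of 517 were lower, and on chromosome 14, 199 of 306. The 2 recipients gave near-equal medians on these 3 chromosomes. Single genes went against their chromosome, such as Itm2b on chromosome 14 and Cd79a on chromosome 7. Whether DNA copy number moved with these medians was not tested.

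**Figure D5:**
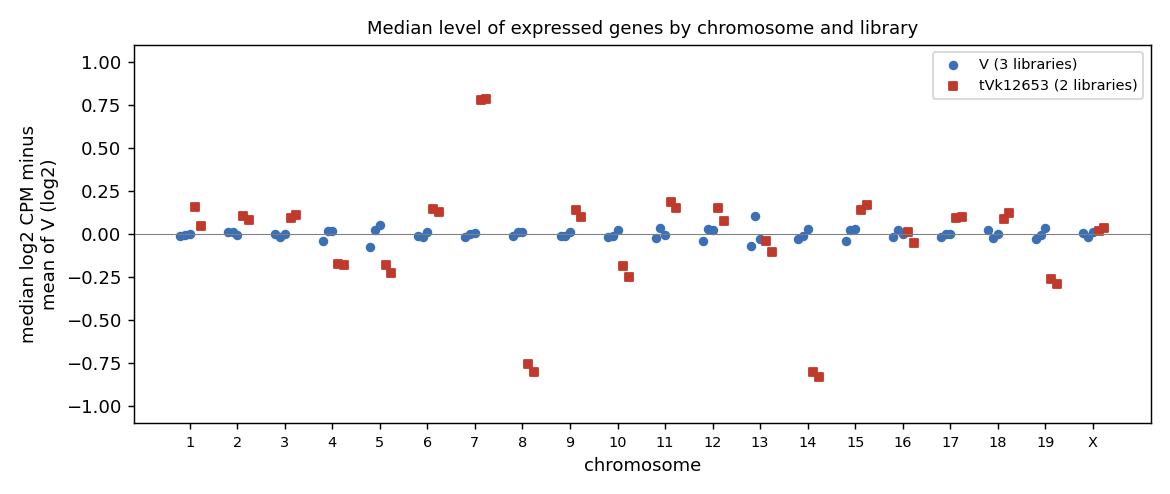
Median over expressed genes of log2 CPM minus the mean of the V libraries, by chromosome, for each V library (blue circles) and each tVk12653 library (red squares). The tVk12653 libraries lie near 0.78 on chromosome 7 and near -0.8 on chromosomes 8 and 14.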

How the data were processed

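Per the labels' protocols, the RNeasy Micro kit gave the RNA and the Takara SMARTer stranded pico kit the libraries. STAR 2.6.1d and GRCm38.p6 are named in the submitters' processing notes. As deposited, the values are raw counts of reads by gene symbol in each of the 13 libraries (22997 symbols, 22000 matched to RefSeq), without normalization per its values. Which tool, annotation and strand setting made the counts is not given in the sources used here.

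Counts were scaled with TMM and filtered with filterByExpr (minimum count 10, minimum total 15). All 13 libraries were fitted with 1 mean per group (6 groups, 7 residual degrees of freedom) in edgeR 4.0.16 (quasi-likelihood, robust) under R 4.3.3, with Benjamini-Hochberg adjustment over 12835 genes and a threshold of 0.05. The fitting code was checked on simulated data, but no outcome of that check is given here and no result rests on it. The common biological coefficient of variation was 0.195. CPM of single libraries uses the same TMM factors. A gene at 0 in a whole group is given as at least N-fold against a floor of 3 counts per library, which equals 0.693 and 1.09 CPM in tVk12653 and 0.974 to 1.48 CPM in V. A gene with 1 to 3 counts in a group is given as a ratio of summed counts, each over the summed effective library sizes, with an exact 95% interval. Floors and intervals cover counting error only: chi-square divided by its degrees of freedom was 8.20 to 11.9 for pairs of replicate libraries. Each library has its own marrow identifier in the labels, which do not say outright that each is a separate animal. If not, p-values measure only the spread between these samples, which may be technical.

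The libraries compared, the gene lists and the tests were chosen with earlier results of these data known. Genes were named by a rule: the 12 largest fold changes per direction without overlap at 3 log2 CPM or more, leaving out predicted, ribosomal protein, histone, mitochondrial, small RNA, sex-linked and marker genes, up to 4 called genes per list by lowest adjusted p (the 2 most abundant where none was called), the 4 most abundant called genes at 0 in a group per direction, and, whatever their values, Myc, Max, Nras, Sdc1, Ptprc, Jchain, Irf4, Xist, Ddx3y and for every marker list its 3 most abundant members. Further list genes and the neighbours of Rb1, Map3k14 and Jak1 (at least 5 CPM in a group) were chosen after their values were seen. Alternatives covered scaling, filters, DESeq2 1.42.0, other sets of libraries, a replicate block, a fold threshold, gene exclusions and leaving out each library.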

Additional observations from a re-analysis of the deposited data

How the results depend on the processing

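The counts of 2714 genes higher and 3013 lower moved by over 1.5 times under 2 alternatives. They were 1228 and 1543 in a fit of arms in which the lines of the other transplanted group were pooled, with recipients summed, and 1518 and 1826 in a test against a 1.5-fold threshold. Other settings gave similar counts, higher and lower in turn: relative log expression factors 2742 and 2995, no low count filter 2764 and 3056, a minimum count of 30 2587 and 2826, DESeq2 2554 and 2968, tVk12653 and V alone 2497 and 2749, without the other transplanted lines 2407 and 2824, without the 20 most abundant genes 2853 and 2878, and without X and Y 2637 and 2925. Leaving out each library in turn gave 2035 to 2465 higher and 2217 to 2746 lower. Without 1 tVk12653 library, the lone sample is assumed to vary like the other groups. A fit without chromosomes 7, 8 and 14, chosen after seeing the data, gave 2097 and 2308. No gene was called in opposite directions under any of these, and the share of higher genes among calls lay between 44.3% and 49.8%. In the fit of arms, 8 MYC targets, 2 mitosis genes, 6 replication genes, 17 ribosomal protein genes and 4 MHC class I genes were higher, and 6 interferon response genes, 5 secretory genes and 6 plasma cell genes were lower. Of 208 called genes among 250 examined singly, 132 were called in every setting that tested them, 76 were lost in at least 1 and none was reversed. The fit of arms lost 63 of them and the fold threshold 37, and the fit of arms also gave Jchain an adjusted p of 0.0594 by edgeR. In both lost sets were Nras, E2f3, Mki67, Xbp1 and Npm1. With no low count filter, p-values of some genes, such as Fos, Jun and Dusp1, were too small for the spread between their libraries. Calls gained only in that setting carry no weight. Depth limits what can be said of genes under the floor of 3 counts per library.

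The replicate numbers of the labels are shared by V and tVk12653 for numbers 1 and 2 only, with nothing that marks a shared litter or day. Deviations from the group means correlated by 0.0549 between the libraries numbered 1 and by 0.0469 between those numbered 2. With the replicate block, 2109 genes were higher and 2430 lower, and 11 of the genes examined lost their call, E2f3 and Nras among them. This fit used the V and tVk12653 libraries alone, which without the block gave 2497 and 2749. V replicate 3 has no partner in it and adds nothing to the contrast, so lost calls cannot be ascribed to pairing.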

Other observations

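Further genes had the largest changes and belong to no list above. Nt5el stood at 85.8 and 80.1 CPM in tVk12653 with no count in V, at least 70.7-fold higher, Rbms3, an RNA-binding protein gene, at 47.8 and 56.5 (at least 44.5-fold) and Eva1c at 14.1 and 31.5 (at least 19.4-fold). Clec2g, a C-type lectin gene, stood at 87.8, 75.8 and 118 CPM in V and had no count in tVk12653 (at least 105-fold lower). Naaladl2, a peptidase-like gene, had no count in any V library and 19 and 42 in tVk12653. Tbx15, a T-box factor of skeletal development, had no count in any V library and 18 and 24.6 in tVk12653. Nxf3, an RNA export factor, had no count in any V library and 49.2 and 41.7 in tVk12653. On the falling side, Thbd, which encodes thrombomodulin, stood at 70.02, 61.2 and 92.8 CPM in V and 0 in both tVk12653 libraries, Cobl, an actin nucleator, at 34.5, 72.9 and 46.1 CPM in V and 0 in both tVk12653 libraries, and Retreg1, a receptor for endoplasmic reticulum turnover, at 58.2, 75.4 and 87.3 CPM in V and 0 in both tVk12653 libraries. Gng12, a G protein subunit, stood at 49.8, 63.3 and 49.98 CPM in V and 0 in both tVk12653 libraries.

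Cd68, a lysosomal gene counted among the monocyte markers, went against that list, from 12.8, 21.3 and 33.8 CPM to 108 and 164 (log2 fold change 2.54 ± 0.35, edgeR adjusted p = 1.40e-04), while 10 of its 13 tested genes were lower. Cd68 made up most of the summed monocyte and macrophage markers in tVk12653, which were 118 and 169.9 CPM. Summed dendritic cell markers lay between 183 and 235 CPM in V and between 41.6 and 55.1 in tVk12653 (3 of 8 tested lower). For stroma and endothelium the ranges were 67.6 to 116 and 15.6 to 16.4 (2 of 6 lower), and for erythroid cells 18.7 to 54.2 and 11.6 to 13.8 (1 of 10 lower, Car2, and 0 without any 1 of the 5 libraries). Without chromosomes 7, 8 and 14 the number lower was 1 for dendritic cells, 1 for stroma and 0 for erythroid cells. Basophil and mast cell markers lay between 3.25 and 16.0 in V and between 0.362 and 1.16 in tVk12653 (2 of 5 lower, and 0 without V replicate 2, tVk12653 replicate 1 or tVk12653 replicate 2). Megakaryocyte markers lay between 3.56 and 12.3 and between 3.24 and 4.35, and of the 4 tested 0 were called by edgeR, 0 had an unadjusted p under 0.05 and 0 were called by DESeq2.

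Xist, which coats the silenced X, had 2631, 1493 and 1881 CPM in V and 3.24 and 3.26 in tVk12653 (edgeR adjusted p = 0.0705). It was called lower with no low count filter (adjusted p = 3.12e-238), with tVk12653 and V alone (1.51e-07), in the fit of arms (0.0451), by DESeq2 (1.81e-05) and with the replicate block (3.29e-08). The first of these p-values carries no weight, since that setting gave values too small for the spread of other genes. Ddx3y, a gene of the Y chromosome, had no count in V and 0 and 0.362 CPM in tVk12653. The donor sex is not in the labels.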
